A study of Mus musculus with 12 samples.

Results

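Of the 19057 genes with a named probe on the array, 127 were voltage-gated or potassium-selective ion channel genes, measured by 265 of the 45281 probes. They were taken by symbol alone: every gene whose symbol in the array annotation begins with Kcn, with Scn and a digit, with Cacn or with Clcn, apart from 1 calcium channel pore gene that is not analysed here. The rule itself uses no measured value, although it was chosen with earlier results of these data known. Expression was measured in skeletal muscle of transgenic (TG) mice that overexpress Nur77 in skeletal muscle and of wild-type (WT) mice, and all mice of both genotypes had been fasted overnight. Nur77 is an orphan nuclear receptor encoded by Nr4a1. RNA of 6 TG and 6 WT mice was combined by 2 mice into 3 TG pools (TG1, TG2 and TG3) and 3 WT pools (WT1, WT2 and WT3), and each pool was hybridised to 1 array on each of 2 chips. Chip 1 and chip 2 here stand for rep1 and rep2 in the sample titles, which do not name a chip. The sample titles abbreviate the tissue as "Gastr", and the strain, age and sex of the mice and the promoter of the transgene are not given in the sources used here.

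Voltage-gated sodium channels carry the upstroke of the muscle action potential, and voltage-gated potassium channels repolarise the membrane. Inward rectifiers, tandem-pore (Kcnk) potassium channels and the muscle chloride channel of the CLC family hold the resting potential. The L-type calcium channel of the transverse tubule, with its pore and its alpha2delta, beta and gamma subunits, is the voltage sensor that couples the action potential to calcium release.

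The arrays detected between 17607 and 19118 probes each. Of 11 muscle fibre markers, 10 had a named probe and all 10 were tested. Their summed signal was 420000 to 450000 in TG pools and 363000 to 405000 in WT pools. On the normalised values, their median log2 difference, TG minus WT, was -0.03. Of the 10 markers, the fast myosin genes Myh1 and Myh4 were called, with log2 differences of 0.36 and -0.22. The genotype labels could not be checked by the transgene, since the Nr4a1 probe passed the detection threshold on 0 of 12 arrays (signals from -16.2 to 8.2). On the second principal component, both arrays of TG3 and the chip 2 array of WT1 stood apart from the rest. Leaving TG3 out and taking WT1 from chip 1 only left 17 channel genes called, 6 higher and 11 lower in TG (43.6% of those tested, against 31.3% of all tested genes). With WT1 from chip 1 only, 15 were called, 4 higher and 11 lower (38.5%, against 30.1%). Both settings were chosen after the data were seen, and they stand beside the 14, 4 and 10 described next. Signals are the deposited linear intensities, averaged over the 2 arrays of a pool. Differences are TG minus WT on the log2 scale, with the SE of the fit over 3 pools per genotype. A gene was called at an adjusted p (limma, Benjamini-Hochberg over all tested probes) under 0.05. In whole-muscle RNA, fewer cells of a type and less RNA per cell cannot be told apart.

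Of the 127 channel genes, 39 had a probe with a detection p under 0.05 on all 6 arrays of at least 1 genotype and were tested, which is 30.7% against 47.9% of all named genes. Of the 39, 30 were detected on all 6 TG and all 6 WT arrays. Another 5 (Clcn4, Kcnab2, Kcne1l, Kcnh6 and Kcnj4) were detected on all 6 TG arrays but not on all 6 WT arrays. The reverse held for 4 genes (Kcne4, Kcnf1, Kcnk1 and Kcnu1). A further 44 genes were detected on some arrays, and 44 on none. Among the potassium channels, 9 of 35 voltage-gated pore genes, 4 of 13 auxiliary subunit genes, 5 of 13 inward rectifiers and 4 of 14 tandem-pore genes were tested. The group of calcium-, sodium- or chloride-activated potassium channels and their beta subunits had 3 of 11 tested.

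Sodium channel pores had 1 of 7 genes tested (Scn2a, best known from neurons) and sodium channel beta subunits 2 of 3. Calcium channel pores had 1 of 9 tested, the T-type channel Cacna1h. The other calcium channel subunits had 1 of 3 alpha2delta, 2 of 3 beta and 2 of 8 gamma genes tested, and the CLC family 4 of 6. The last 2 symbols of the rule name non-coding RNAs, of which Kcnq1ot1 was tested. Of 25 channel genes listed as known from skeletal muscle, 21 had a named probe and the other 4 are not analysed here. Kcnn2 and Kcnn3, small-conductance calcium-activated potassium channels, and the auxiliary subunit Kcne3 were detected on 0 arrays of either genotype. Kcnq5, which carries an M-type potassium current, was detected on 2 of 6 TG and 3 of 6 WT arrays. Not detected means that the signal was not above background here, which does not show that the transcript was absent.

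**Figure D1:**
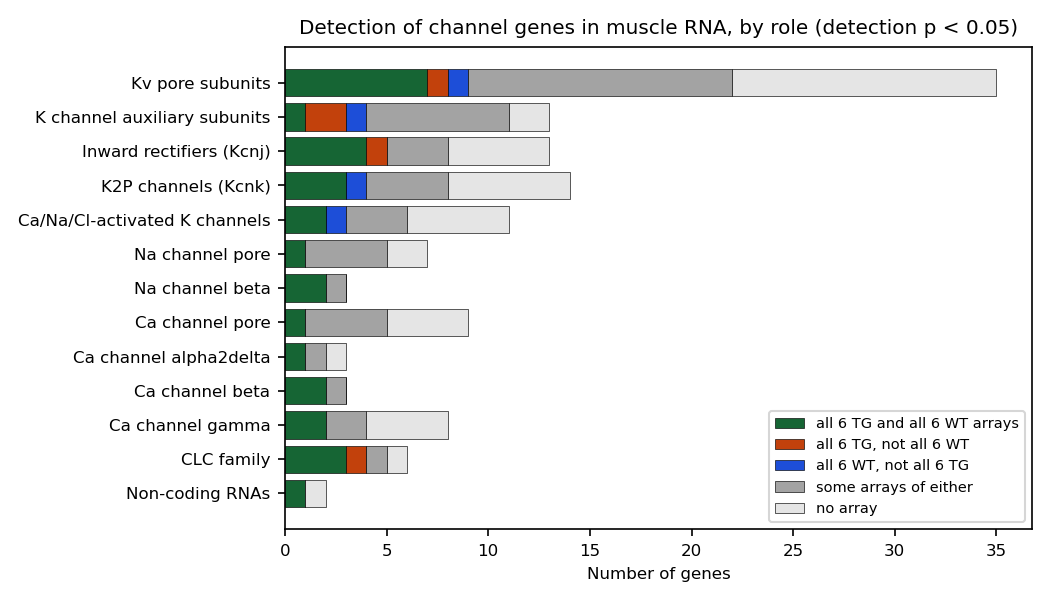
Number of channel genes (horizontal axis) in each role group, split by the arrays on which at least 1 probe had a detection p under 0.05. Of 127 genes, 30 were detected on all 6 TG and all 6 WT arrays, 5 on all TG arrays but not all WT arrays, 4 on all WT arrays but not all TG arrays, 44 on some arrays and 44 on none.

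Of the 39 tested channel genes, 14 were called (35.9%, against 28% of all 9131 tested genes). Without WT1 the shares were 17.9% of the channel genes and 17.7% of all genes, and without WT2 they were 12.8% and 14.5%. With no filter on dim probes they were 10.2% and 12.8%. The smallest adjusted p belonged to rises of Kcna6 and Kcnk5, potassium channel pores, and falls of Cacng1, a subunit of the muscle L-type channel, and Kcnf1, a potassium channel modulator. In all, 4 were higher in TG (10.3%, against 12.1% of all tested genes) and 10 lower (25.6%, against 15.9%). On the normalised log2 values, the pools of the 2 genotypes did not overlap for 19 of the 39 (48.7%, against 47.6% of all tested genes). The median log2 difference was -0.03 over the 39 and -0.02 over all tested genes. A filter for probes detected on all 12 arrays requires detection in both genotypes. It left 30 channel genes tested, of which 10 were called, 3 higher and 7 lower (33.3%, against 28.8% of all genes so tested). With a probe detected on at least 6 of the 12 arrays, 14 of 45 were called (31.1%, against 24.6% of all genes so tested).

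**Figure D2:**
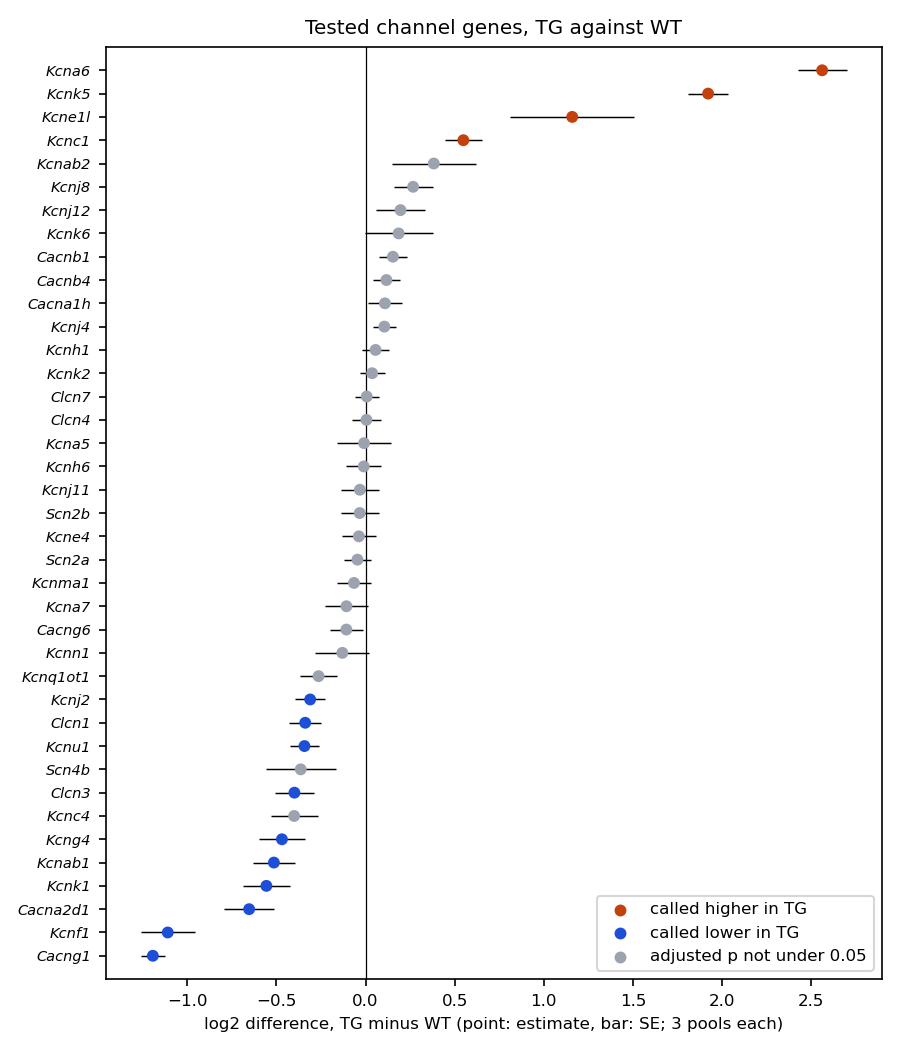
Log2 difference, TG minus WT (horizontal axis; point, estimate; bar, SE; 3 pools each), of the 39 tested channel genes in order of the difference. Kcna6 (2.56) and Kcnk5 (1.92) lay at the upper end, Cacng1 (-1.19) and Kcnf1 (-1.11) at the lower end, and 25 genes did not pass the adjusted p of 0.05.

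Voltage-gated potassium channel pores had 4 of 9 tested genes called, 2 higher and 2 lower. Kcna6, a Shaker-type delayed rectifier at chr6:126708328-126740834 (RefSeq, GRCm38.p6), had signals of 842, 774 and 592 in TG pools, against 71.5, 66.8 and 80.9 in WT pools. Every TG pool lay far above every WT pool, although TG3 was the lowest of the 3 TG pools. The ratio of mean signals was 10.1, and the fitted difference was 2.56 ± 0.14 (adjusted p = 2.6e-05). The background correction of the fit compresses dim signals, and without it the difference was 3.39. A second Kcna6 probe gave 466, 432 and 350.3 in TG pools and 73.2, 46.0 and 66.0 in WT pools, with a difference of 1.95 ± 0.13 (adjusted p = 7.71e-05). The other 2 Kcna6 probes were not tested: 1 was detected on 1 TG array and the other on no array.

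Kcnc1, a Shaw-type channel of fast repolarisation, had signals of 1087, 1072 and 996 in TG pools and 775, 681 and 867 in WT pools. The pools did not overlap, and the difference was 0.55 ± 0.10 (adjusted p = 0.00807). Its call was lost in the authors' deposited value table (0.49) and on chip 2 alone (0.62). Kcnc4, its relative with fast inactivation, ran the other way, with 3697, 3591 and 2694 in TG pools and 4806, 4630.0 and 4306 in WT pools. Its pools did not overlap either, but it did not pass the test (-0.40 ± 0.13, adjusted p = 0.0579). It was called in 6 of 21 alternative settings, at differences from -0.49 (without TG1) to -0.24 (without TG3). A second, much dimmer Kcnc4 probe (20.7 to 111.6 on single arrays) differed by -0.21 ± 0.11 and was not called.

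Kcnf1, at chr12:17172100-17176888, encodes a silent subunit that forms no channel alone and modifies Kcnb-type channels when it assembles with them. Its signals were 3.50, 6.00 and 8.10 in TG pools, against 106, 123 and 53.8 in WT pools, and it was detected on 0 of 6 TG and 6 of 6 WT arrays. It was not well above background on any TG array, so only a bound can be given. With the dimmest detected probe of each TG array as the floor, Kcnf1 was at least 1.91-fold lower in TG, with a fitted difference of -1.11 ± 0.15 (adjusted p = 0.00197). It was the only channel gene detected on all 6 arrays of 1 genotype and on at most 1 array of the other.

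Kcng4, another silent subunit of the same kind, had 123, 93.6 and 104 in TG pools and 144, 183 and 209 in WT pools. The pools did not overlap, and the difference was -0.47 ± 0.13 (adjusted p = 0.0335), or -0.71 without background correction. A second Kcng4 probe differed by -0.49 ± 0.15 and missed the threshold (adjusted p = 0.0503). The call was lost on chip 2 alone, with the pool number as a block, and without TG2, TG3, WT2 or WT3 in turn. Kcna5 and Kcna7, further Shaker-type delayed rectifiers, did not pass. Their differences were -0.0083 ± 0.15 (95% interval -0.36 to 0.34) and -0.11 ± 0.12 (-0.39 to 0.17).

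**Figure D3:**
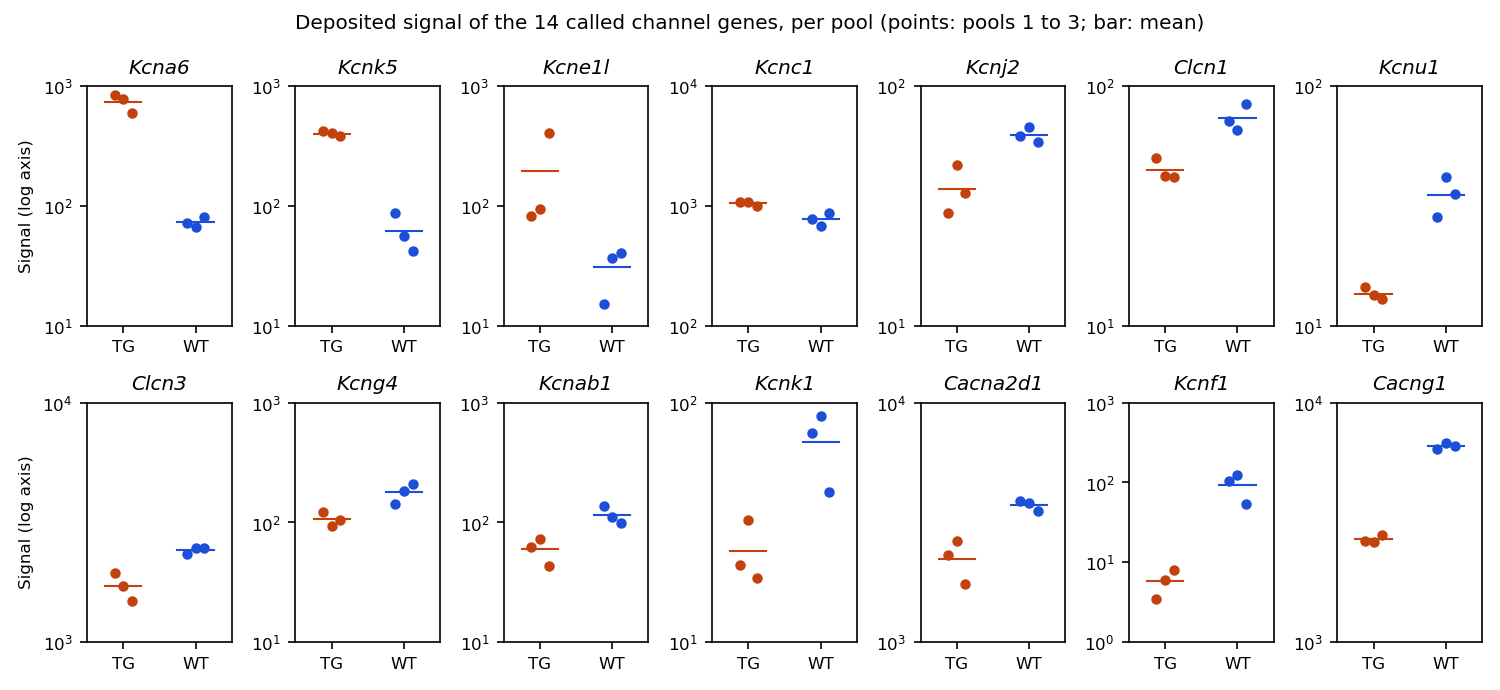
Deposited signal (log axis, linear intensity averaged over 2 arrays; points, pools 1 to 3 from left to right; bar, mean) of the 14 called channel genes in TG and WT pools. In each panel the 3 TG pools lie on 1 side of the 3 WT pools, and in Kcne1l 1 TG pool (405) stands well above the other 2 (81.8 and 95.0).

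Auxiliary subunits of potassium channels had 2 of 4 tested genes called. Kcne1l (Kcne5), at chrX:142304753-142306198, encodes a small single-span subunit that modulates voltage-gated potassium channels. Its signals were 81.8, 95.0 and 405 in TG pools and 15.1, 36.8 and 40.5 in WT pools. All TG pools were higher than all WT pools, but TG3 was far above TG1 and TG2. The 2 arrays of TG3 were themselves far apart, at 183 on chip 1 and 627 on chip 2. The difference was 1.16 ± 0.35 (adjusted p = 0.0431), and without TG3 it was 0.69. It was 2.35 without background correction and 0.77 on chip 1 alone. The call was lost without TG2, WT1, WT2 or WT3 in turn, on chip 2 alone and with no filter on dim probes.

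Kcnab1, a cytoplasmic beta subunit of Shaker-type channels, had 62.5, 73.5 and 43.0 in TG pools and 138, 111 and 99.3 in WT pools. The pools did not overlap, and the difference was -0.51 ± 0.12 (adjusted p = 0.0173), or -0.98 without background correction. Its second probe was called as well (-0.40 ± 0.08, adjusted p = 0.0122). The call of the first was lost on chip 1 alone and without WT1 or WT2. Kcnab2, a related beta subunit, had 23.2, 23.6 and 105 in TG pools and 53.0, 14.3 and 4.05 in WT pools. These groups overlapped, with TG3 highest, and the difference of 0.38 ± 0.24 did not pass (adjusted p = 0.266). The 2 arrays of WT1 were far apart, at 3.5 on chip 1 and 102.6 on chip 2.

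**Figure D4:**
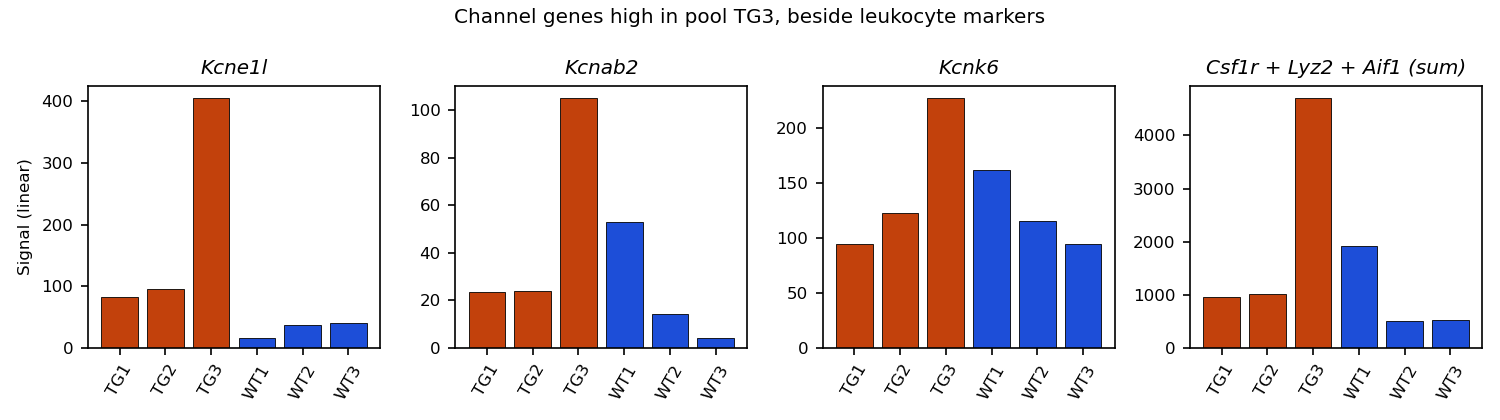
Deposited signal (linear intensity, pool means) of Kcne1l, Kcnab2 and Kcnk6 and the summed signal of 3 leukocyte markers, in the 3 TG and 3 WT pools. TG3 is the highest pool in each panel, at 405, 105, 227 and 4698, and the 3 channel genes were chosen for being high there. Among the WT pools, WT1 is the highest for Kcnab2, Kcnk6 and the leukocyte sum, and the lowest for Kcne1l. The 2 arrays of WT1 (chip 1, chip 2) were far apart for Kcnab2 (3.5, 102.6) and for Kcnk6 (113, 211.1).

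Leukocyte markers were also highest in TG3. The list has 8 genes, of which 6 had a named probe and 3 were tested (Csf1r, Lyz2 and Aif1), while Ptprc, Itgam and Cd3e did not pass the detection filter. The summed signal of the 3 was 963, 1011 and 4698 in TG1, TG2 and TG3, against 1910, 504 and 515 in WT1, WT2 and WT3. By limma 0 of the 3 were called, and 1 had an unadjusted p under 0.05. Fibroblast markers, with 7 of 7 tested, summed to 22500 to 30900 in TG pools, highest in TG3, and to 22300 to 24400 in WT pools. Of these 0 were called by limma and 1 had an unadjusted p under 0.05. Most of the fibroblast sum came from Dcn, with 18770 to 21499 in TG pools and 18478 to 20124 in WT pools. The part of these cells in the signals of Kcne1l, Kcnab2 and Kcnk6 was not tested. For Kcna6 and Kcnk5, TG3 was the lowest TG pool, and the part of leukocytes and fibroblasts in their signals was not tested either.

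Tandem-pore potassium channels, which carry background potassium current, had 2 of 4 tested genes called, in opposite directions. Kcnk5, at chr14:20140057-20181782, encodes a channel that opens at alkaline outside pH. Its signals were 419, 402 and 379 in TG pools, against 86.5, 56.5 and 41.9 in WT pools. The TG pools lay within a narrow range and all exceeded the WT pools. The ratio of mean signals was 6.49, and the fitted difference 1.92 ± 0.11 (adjusted p = 3.79e-05), or 2.85 without background correction. A dimmer probe, detected on 6 TG and 3 WT arrays, also was called, at 0.71 ± 0.10 (adjusted p = 0.00197). The remaining Kcnk5 probe was detected on 2 TG arrays and 1 WT array and was not tested.

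The 250 bases before the RefSeq start sites of Kcnk5 and Kcnf1 are printed because these genes are among the 4 with the smallest adjusted p and their windows lie wholly outside the gene. They were searched for the NBRE, the response element that NR4A receptors bind as monomers (AAAGGTCA, or TGACCTTT on the other strand, with no overlapping second motif searched). The sequences are from RefSeq (GRCm38.p6), minus strand, chr14:20181783-20182032 for Kcnk5 and chr12:17176889-17177138 for Kcnf1. Neither window holds the element, so both are in lower case throughout.
Kcnk5: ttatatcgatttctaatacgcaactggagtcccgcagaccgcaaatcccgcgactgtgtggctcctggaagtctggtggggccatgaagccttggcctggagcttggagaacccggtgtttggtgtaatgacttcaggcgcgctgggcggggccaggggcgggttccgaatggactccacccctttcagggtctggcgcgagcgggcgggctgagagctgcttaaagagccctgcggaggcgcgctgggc
Kcnf1: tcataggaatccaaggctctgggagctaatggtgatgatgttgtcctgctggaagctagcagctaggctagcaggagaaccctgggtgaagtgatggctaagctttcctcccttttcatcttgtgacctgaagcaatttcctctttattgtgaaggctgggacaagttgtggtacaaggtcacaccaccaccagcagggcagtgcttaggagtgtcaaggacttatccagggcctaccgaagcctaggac

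Of the 14 called genes, 12 had a promoter in the RefSeq table, and 0 of the 12 held the element. Over the same 250 bases it was found in 419 of 27025 genes (1.55%), in 2 of 98 channel genes (2.04%) and in 1 of 34 tested channel genes (2.94%). That tested gene was Kcnh1, an ether-a-go-go type potassium channel, whose signals were 25.9, 26.1 and 20.1 in TG pools and 27.1, 16.8 and 18.7 in WT pools. These overlapped, and the difference was 0.06 ± 0.08 (adjusted p = 0.613). The other was Scn8a, a sodium channel pore that was not tested. Both sites are shown with flanking bases on the plus strand, at chr1:192190543-192190572 for Kcnh1 and chr15:100936087-100936116 for Scn8a, with the element in capitals.
Kcnh1: gagtcttcttgTGACCTTTtcgggtgtgtg
Scn8a: aggaccattacAAAGGTCAcccaagccact

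Kcnk1, a tandem-pore channel of small current, had 21.0, 32.2 and 18.6 in TG pools, against 74.8, 87.5 and 42.4 in WT pools. It was detected on 4 of 6 TG and 6 of 6 WT arrays, and the pools did not overlap. The difference was -0.56 ± 0.13 (adjusted p = 0.0187), or -1.56 without background correction. The call was lost on chip 2 alone and without WT1 or WT2. Kcnk6, a relative found in many tissues, had 94.8, 122 and 227 in TG pools and 162, 115 and 94.7 in WT pools. The groups overlapped and the difference of 0.19 ± 0.19 did not pass. Kcnk2, a mechanically gated member, differed by 0.04 ± 0.07 and did not pass.

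Among the inward rectifiers, 1 of 5 tested genes was called. Kcnj2, the channel that sets the resting potential of muscle fibres and whose human mutations cause periodic paralysis in Andersen-Tawil syndrome, had 29.4, 46.7 and 35.6 in TG pools and 61.7, 67.5 and 58.2 in WT pools. Every TG pool was below every WT pool. The difference was -0.31 ± 0.08 (adjusted p = 0.0315), or -0.77 without background correction. The call was lost on chip 2 alone and without TG1, WT1, WT2 or WT3 in turn. Kcnj12, a second strong inward rectifier of muscle, had 353, 377 and 268 in TG pools and 307, 266 and 331 in WT pools. These groups overlapped, with TG3 the lowest of the TG pools, and the difference was 0.20 ± 0.14 (adjusted p = 0.327). Without TG3 it was called at 0.35.

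The pores of ATP-sensitive potassium channels did not pass. Kcnj11, the muscle fibre pore, had 87.3, 92.0 and 65.2 in TG pools and 101, 80.7 and 81.5 in WT pools. These overlapped, and the difference was -0.03 ± 0.11 with a 95% interval of -0.28 to 0.22. Kcnj8, the pore known from vascular smooth muscle, differed by 0.27 ± 0.11 (adjusted p = 0.111), and Kcnj4, a rectifier known from brain and heart, by 0.11 ± 0.06.

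Of the calcium-, sodium- or chloride-activated potassium channels, 1 of 3 tested genes was called. Kcnu1, whose channel is known from sperm, had 14.5, 13.4 and 12.9 in TG pools and 28.6, 41.7 and 35.6 in WT pools, signals close to background. It was detected on 2 of 6 TG and 6 of 6 WT arrays. The pools did not overlap and the difference was -0.34 ± 0.08 (adjusted p = 0.0174), or -1.32 without background correction, where 1 TG array lay under the floor of 10 set on the signals. Its call was lost on chip 2 alone (-0.22) and without TG2, WT2 or WT3. Kcnma1, the large-conductance calcium-activated channel, had 161, 149.9 and 134 in TG pools and 177, 148 and 166 in WT pools. These overlapped, and its 3 tested probes differed by -0.06, -0.17 and -0.05, none of them called. The small-conductance channel Kcnn1 differed by -0.13 ± 0.15 and did not pass.

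Sodium channel genes had 0 of 3 tested members called by limma. Scn4b, a beta subunit that shapes resurgent sodium current in neurons, had 5116, 4549 and 3109 in TG pools and 4933, 5768 and 6009 in WT pools. The groups overlapped, with TG3 lowest of all, and the difference was -0.36 ± 0.20 (adjusted p = 0.208), or -0.12 without TG3. A second, much dimmer Scn4b probe (20.7 to 53.3 on single arrays) differed by -0.12 ± 0.07. Scn2b, another beta subunit, differed by -0.03 ± 0.11, and the pore gene Scn2a by -0.05 ± 0.08 with a 95% interval of -0.22 to 0.13. None of the 3 genes had an unadjusted p under 0.05.

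The fall with the smallest adjusted p was that of Cacng1, the gamma subunit of the skeletal muscle L-type channel, at chr11:107703218-107716476. Its signals were 2649.7, 2631 and 2794 in TG pools, against 6369.7, 6753 and 6618 in WT pools. Both genotypes had pools in narrow ranges that lay far apart. The signal was 2.44 times as high in WT as in TG, and the difference was -1.19 ± 0.07 (adjusted p = 3e-05), with -1.09 and -1.30 as the bounds over 21 alternative settings. The muscle gamma subunit Cacng6 differed by -0.11 ± 0.09 and was not called.

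Cacna2d1, the alpha2delta subunit of the same channel, had 2304, 2654 and 1752 in TG pools and 3894, 3826 and 3544 in WT pools. Every TG pool was below every WT pool, and the difference was -0.65 ± 0.14 (adjusted p = 0.0134). It was -0.37 on chip 1 (adjusted p = 0.174) and -0.93 on chip 2, and the call was also lost without WT1 or WT2. The other 2 tested Cacna2d1 probes differed by -0.04 ± 0.08 and -0.10 ± 0.09 and were not called. Both were dim, where the background correction compresses differences. Single arrays gave 57.8 to 93 for 1 of them and 8.7 to 34.1 for the other, against 1577.7 to 4351.8 for the called probe. Cacnb1, the beta subunit of the muscle L-type channel, had 530.0, 527 and 612 in TG pools and 514, 559.9 and 539.8 in WT pools. Its difference of 0.15 ± 0.08 did not pass (adjusted p = 0.182), nor did that of Cacnb4 (0.12 ± 0.07) or of Cacna1h (0.11 ± 0.10).

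**Figure D5:**
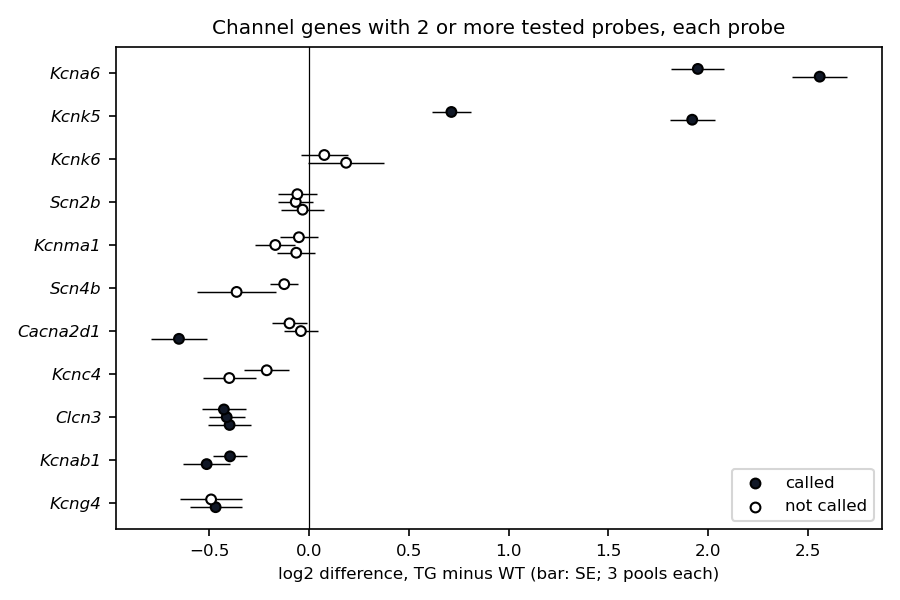
Log2 difference, TG minus WT (horizontal axis; bar, SE; 3 pools each), of each tested probe of the 11 channel genes with at least 2 tested probes; filled points passed the adjusted p of 0.05. Both Kcna6 probes and all 3 Clcn3 probes were called. Only 1 of 3 Cacna2d1 probes was (-0.65, against -0.04 and -0.10 in 2 much dimmer probes).

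Of the CLC family, 2 of 4 tested genes were called, both lower in TG. Clcn1, the chloride channel that stabilises the muscle membrane and is mutated in myotonia congenita, had 49.9, 42.2 and 41.6 in TG pools and 71.5, 65.8 and 84.0 in WT pools. The pools did not overlap, and the difference was -0.34 ± 0.09 (adjusted p = 0.0296), or -0.78 without background correction. The call was lost on chip 2 alone, with the pool number as a block, and without TG2, WT1, WT2 or WT3. Clcn3, a chloride-proton exchanger of endosomes, had 1946, 1716 and 1491 in TG pools and 2336, 2471 and 2466 in WT pools. All 3 tested Clcn3 probes were called, at -0.40, -0.41 and -0.43 (adjusted p = 0.032, 0.0142 and 0.0266). The call of the brightest was lost in 9 of 21 alternative settings. The lysosomal exchanger Clcn7 and the endosomal Clcn4 differed by 0.0067 ± 0.07 and 0.0049 ± 0.08 and did not pass. Kcnq1ot1, the long non-coding RNA of the imprinted Kcnq1 locus, differed by -0.26 ± 0.11 (adjusted p = 0.103).

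Kcna6, Kcnk5, Cacng1 and Kcnf1 were called under every alternative that gave them a value. Kcnf1 had no value with the filter of detection on all 12 arrays, since it was detected on 0 of 6 TG arrays. Schwann cell and axon markers, whose cells also hold Shaker-type channels, had 5 of 11 genes tested, while S100b, Nefl and Nefm did not pass the detection filter. By limma 0 of the 5 were called and 2 had an unadjusted p under 0.05, and their summed signal was 2180 to 2670 in TG pools and 2320 to 3140 in WT pools. Smooth muscle and pericyte markers had 0 of 7 tested genes called and 2 with an unadjusted p under 0.05, with sums of 18400 to 22400 in TG pools and 20800 to 22900 in WT pools. Most of these sums came from Des, with 14194 to 16302 in TG pools and 16853 to 18520 in WT pools. The sums therefore say little of the other genes of this list. Des differed by -0.26 and Acta2 by 0.47, and the median of the list was 0.10. Endothelial markers had 2 of 7 called, both higher in TG (Pecam1, 0.35, and Emcn, 0.30), and 4 with an unadjusted p under 0.05. Their median log2 difference was 0.30 and all 7 were positive, with sums of 5520 to 6980 in TG pools and 5550 to 6160 in WT pools. Adipocyte and red cell markers had 0 of 2 called each, with 1 and 0 at an unadjusted p under 0.05. The adipocyte sums were 470 to 1020 in TG pools and 462 to 604 in WT pools, and the red cell sums 23900 to 37600 in TG pools and 20100 to 29000 in WT pools. The part of these cells in the channel genes' differences was not tested.

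Genes that work beside the channels were read from 4 lists. Over all 9131 tested genes, 28% were called, 12.1% higher and 15.9% lower in TG, with a median of -0.02. Ion pumps and exchangers had 13 tested genes, of which 2 were higher in TG, 1 was lower and 10 did not pass, with a median of 0.09. Atp1b4, a muscle relative of the sodium pump beta subunits, rose by 1.31, the sodium-calcium exchanger Slc8a1 rose by 0.63 and the cotransporter Slc12a2 fell by 0.69. Channel partners and regulators had 13 tested, 2 higher and 1 lower, with a median of 0.02. The membrane anchor Ank2 rose by 0.80, the sodium channel partner Fgf13 rose by 0.47, and Stac3, which is needed for coupling of the L-type channel to calcium release, fell by 0.44.

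Other ion channel families had 30 tested genes, 4 higher and 1 lower, with a median of 0.08. Beside these counts and those of the next list stand the 12.1% higher and 15.9% lower of all tested genes. The store-operated calcium channel Orai1 rose by 0.67, the intracellular channel protein Clic5 by 0.33 and the mitochondrial porin Vdac2 by 0.36. Clic4 (0.67) and the porin Vdac1 (-0.28), also called, were chosen after their values were seen. Genes of denervated muscle and of the neuromuscular junction had 12 tested, of which 6 were higher in TG, 1 was lower and 5 did not pass, with a median of 0.57. Their summed signal was 17800 to 20800 in TG pools and 8180 to 9900 in WT pools. Gadd45a was the largest part of this sum, with 10154, 10055 and 8251 in TG pools and 4398, 3371 and 3711 in WT pools. Chrnb1 came next, with 4407, 4501 and 6148 in TG pools and 2963, 2417 and 2567 in WT pools. The growth arrest gene Gadd45a rose by 1.38, the acetylcholine receptor subunit Chrnb1 by 0.96 and its clustering protein Rapsn by 0.55. The 1 gene that fell, Musk, the receptor kinase of the junction, differed by -0.77. Chrng, the fetal receptor subunit, had 129, 119 and 915 in TG1, TG2 and TG3, against 50.5, 12.2 and 19.7 in WT1, WT2 and WT3. Musk and Chrng were chosen after their values were seen.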

How the data were processed

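Gene expression was measured in 12 single-colour Illumina arrays of 6 muscle RNA pools, 3 TG and 3 WT, each pool on 1 array of each of 2 chips. The deposited signal intensities are called non-normalized in their header, yet 29.3% to 32.8% of values per array lay below 0 and the mean was 472.135 on all 12 arrays, so background had been subtracted and arrays scaled before deposit. The deposited detection score has a header that names a p-value, but its order followed the signals (Spearman of 0.975 or more), so 1 minus the score was used as the detection p. The deposited table of log2 values by the authors was rebuilt from the signals to within 0.00109 and served as an alternative. No source used here names the scanner software.

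The signals were corrected with normexp (offset 50), quantile normalised, taken to log2 and averaged over the 2 arrays of a pool. Normexp on background-subtracted signals compresses differences of dim probes. Probes entered the test where either genotype had a detection p under 0.05 on each of its 6 arrays (15708 of 45281). They were compared in two-sided limma fits (version 3.58.1, R 4.3.3, moderated by eBayes) of 6 pool means. P-values were adjusted by Benjamini-Hochberg over all 15708 probes, with a threshold of 0.05. The fit was tested on simulated data. A gene is represented by its tested probe with the highest mean, and 34885 probes carried 1 symbol, 18 several and 10378 none in the array annotation, which can be old. Its symbols for the 127 channel genes matched RefSeq through their Entrez numbers. Precision is limited by the number of pools, where the smallest p that exact permutation allows is 0.1.

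The channel genes and the lists of pathway genes and cell markers were chosen with earlier results of these data known. Channel genes were named when called, when listed as known from skeletal muscle, when detected on all arrays of 1 genotype and at most 1 of the other, or when they had the smallest p of a role group without a call. Other tested channel genes are given in short for completeness. Probes of 1 gene called in opposite directions were to be named, and there were 0. From each pathway list up to 3 genes with the smallest p were named. Same-numbered pools gave correlations of deviations of -0.417, 0.343 and -0.118 for numbers 1, 2 and 3. With 3 pools per genotype these values cannot decide whether the numbers pair the pools, and the main fit used no pairing.

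Alternative settings comprised signals floored at 10 in place of background correction, neqc, cyclic loess or 75th percentile scaling, the table by the authors, other detection filters, each chip alone, the chip or the pool number as a block (statmod 1.5.0), the mean of a gene's probes, and each pool left out.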

Additional observations from a re-analysis of the deposited data

How the results depend on the processing

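Of the 14 channel genes called, 4 higher and 10 lower in TG, chip 2 alone left 6, with 2 higher and 4 lower (15.4% of those tested, against 10.1% of all tested genes). Leaving out 1 pool at a time gave 5 to 16 channel genes called, 3 to 6 higher and 2 to 10 lower. The call counts were 5 without WT2, 7 without WT1, 8 without WT3 and 9 without TG2. As shares these were 12.8%, 17.9%, 20.5% and 23.1% of the tested channel genes, against 14.5%, 17.7%, 17.9% and 19.7% of all tested genes. The channel share was therefore not above that of all genes without WT2 and was close to it without WT1. With no filter on dim probes it was also lower, at 10.2% (13 of 127), against 12.8% of all genes. With the pool number as a replicate block 12 were called (30.8%, against 21.4% of all tested genes), of which 11 were among the 14. With the chip as a replicate block 14 were called (35.9%, against 33.7%). The other settings gave between 10 and 17. Apart from the setting with no filter, their shares were 30.8% to 43.6% of tested channel genes, against 19.9% to 31.3% of all tested genes. For the 26 named channel genes with a test, 471 values under the alternatives kept their direction and their side of the threshold, 47 lost the call, 8 gained it and 15 changed sign, all of these small and not called. For Kcna5 they were 0.024 with cyclic loess, 0.16 on chip 1 alone and 0.064 without TG3 and with WT1 from chip 1 only, and -0.10 to 0.14 with single pools left out. For Kcna7 the value was 0.036 on chip 2 alone. For Kcnj11 they were 0.16 on chip 1 alone, 0.12 without TG3 and with WT1 from chip 1 only, and 0.0043 with WT1 from chip 1 only, and -0.095 to 0.086 with single pools left out. With single pools left out, Kcnk6 ranged from -0.036 to 0.35 and Kcnma1 from -0.13 to 0.025. Kcnma1 was 0.054 on chip 1 alone and 0.052 without TG3 and with WT1 from chip 1 only. The cause of these changes was not tested. The share of calls over all genes that were higher in TG was 43.2% as reported, 32.8% with 75th percentile scaling and 50.9% with cyclic loess. A detection p under 0.01 left 33 channel genes detected in place of 39, and detection on at least 3 of 6 arrays of a genotype gave 55. Signals close to background limit what can be said of Kcnf1, Kcnk1 and Kcnu1, and of Kcne1l in WT pools (14.9 to 56.5 on single arrays). Kcnj2 and Clcn1 were dim too, with TG arrays down to 26 and 20.7.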
